A study of Mus musculus with 23 samples.

Results

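The interneuron lineage transcription factors examined here are 9 genes, Dlx1, Dlx2, Dlx5, Dlx6, Dlx6os1, Lhx6, Sox6, Satb1 and Maf, taken by symbol from the tables of fathers and of offspring. The symbol Dlx6os1 stands on a pair of identifiers, so the 9 genes are 10 of the 51912 identifiers in the tables. Hippocampal mRNA of male wild-type C57BL/6 mice, an inbred laboratory strain, was sequenced in 23 libraries. The groups were exercised fathers (n = 4; treadmill running for 40 minutes a day over 6 weeks), sedentary fathers (n = 4), and the offspring of each, with 7 libraries of offspring of exercised and 8 of offspring of sedentary fathers. Fathers were 7 months old and offspring 5.5 months old, so generation and age cannot be told apart. The labels name a treatment for the fathers and none of its own for the offspring, and they do not say which father each of the offspring came from.

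GABAergic interneurons of the hippocampus are born in the ganglionic eminences, the embryonic swellings below the cortex, and migrate into it. Dlx1 and Dlx2 are homeobox factors that set GABAergic fate in those zones and act upstream of Dlx5 and Dlx6. Lhx6, a LIM homeobox factor, acts in cells of the medial ganglionic eminence, which become somatostatin and parvalbumin interneurons, and Sox6, Satb1 and Maf act in the same cells as they settle and mature. Dlx6os1 is a long noncoding RNA transcribed across the Dlx5 and Dlx6 locus, known in the mouse for regulating those genes. Several of these factors stay on in adult interneurons. Satb1, Sox6 and Maf are also made by other cells, Satb1 by glutamatergic neurons and Sox6 by oligodendrocyte precursors.

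The genes lie on 5 chromosomes of GRCm38. Dlx1 (chr2:71528113-71533981, plus strand) and Dlx2 (chr2:71543408-71546754, minus strand) are neighbours that face each other. Dlx5 (chr6:6877805-6882085, minus strand) lies next to Dlx6 (chr6:6863334-6868568, plus strand), and Dlx6 lies inside the span of the antisense gene Dlx6os1 (chr6:6820189-6871592, minus strand), with which it shares 0 exon bases. Lhx6 lies at chr2:36081953-36105408, Sox6 at chr7:115470872-116038796, Satb1 at chr17:51736187-51833290 and Maf at chr8:115682942-115707794, all on the minus strand. Dlx1 shares 335 exon bases with the antisense gene Dlx1as, which had 133.1 to 239 normalized counts in a library. The libraries were strand-specific, but whether counting used the strand is not given in the sources used here, so reads of Dlx1 and Dlx1as may be mixed.

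RefSeq promoter windows of GRCm38.p6 were found for 6 of the 9 genes, namely Dlx1, Dlx2, Dlx6os1, Lhx6, Sox6 and Satb1. They were searched on both strands for TAATTA, a core that homeodomain proteins bind, and for the CCAAT box and TATAAA, which are promoter elements. Matches of the 3 motifs do not overlap in the windows shown. The 250 bases before a start are shown for Dlx2, which varied with the other Dlx genes, for Dlx6os1, which did not, and for Lhx6, which varied with neither, with matches on either strand in capitals.
Dlx2, chr2:71546755-71547004, minus strand: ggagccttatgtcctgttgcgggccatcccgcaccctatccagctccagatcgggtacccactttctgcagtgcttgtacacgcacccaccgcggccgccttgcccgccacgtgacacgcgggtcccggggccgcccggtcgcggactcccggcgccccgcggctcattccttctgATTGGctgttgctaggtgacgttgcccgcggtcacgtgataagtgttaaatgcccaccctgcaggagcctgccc
Dlx6os1, chr6:6861684-6861933, minus strand: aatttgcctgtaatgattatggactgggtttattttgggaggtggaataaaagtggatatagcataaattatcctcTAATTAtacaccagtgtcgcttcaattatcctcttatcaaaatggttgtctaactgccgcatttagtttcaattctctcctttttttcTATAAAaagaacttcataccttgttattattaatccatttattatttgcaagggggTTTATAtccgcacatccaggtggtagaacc
Lhx6, chr2:36105409-36105658, minus strand: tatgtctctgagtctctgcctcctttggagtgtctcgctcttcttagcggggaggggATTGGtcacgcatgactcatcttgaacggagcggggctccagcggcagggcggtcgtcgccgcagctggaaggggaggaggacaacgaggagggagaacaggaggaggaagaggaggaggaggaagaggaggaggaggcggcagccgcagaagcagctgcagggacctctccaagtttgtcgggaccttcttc
The start of Dlx6os1 is a RefSeq start inside the span of the gene. The windows of Dlx2 and Lhx6 hold the CCAAT box on the opposite strand, which reads ATTGG here. The box stands on one strand or the other in 33.8% of 32851 promoter windows of the same length. The Dlx6os1 window holds TAATTA, found in 4.84% of windows, and TATAAA on both strands, found in 12.4%. The windows differ in base composition, with 66.4% G and C for Dlx2, 34.0% for Dlx6os1 and 61.6% for Lhx6. A match is a description of the letters, not a site of binding.

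Pyramidal and granule cell genes and interneuron genes were detected in every library. Detection alone does not identify the region, since no gene of a striatum and septum list was at 0 either. None of 10 pyramidal and granule cell genes, 12 GABAergic neuron genes or 15 interneuron subtype genes was at 0 in any library, and the summed pyramidal and granule list ranged from 106908 to 137745 normalized counts. Libraries held 33667580 to 55172616 reads. A normalized count is the read count of a gene divided by 1 size factor per library, as the authors deposited it. Libraries 3 and 4 of the sedentary fathers stood apart in 12 genes of the thalamus, a neighbouring region, with summed counts of 16752 and 25258.5 against 7979 to 11974 in the other 21 libraries. Genes of the choroid plexus, which makes cerebrospinal fluid, summed to between 2826 and 209565.

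All 9 genes were detected in all 23 libraries, with 120 to 7055 reads each. The second identifier of Dlx6os1, a 146-base misc_RNA entry, had at most 1 read and was seen in 5 of 23 libraries, so it entered no test. Per kilobase of exon, Satb1 was the most abundant at 258 ± 32.8 normalized counts (SD over 23 libraries), above the next gene in all 23 libraries. Maf (176 ± 12), Dlx1 (174 ± 28.8), Lhx6 (165 ± 14.1) and Dlx6os1 (155 ± 21.3) formed a middle tier in which neighbours did not differ beyond their spread: Maf exceeded Dlx1 in 12 libraries, Dlx1 exceeded Lhx6 in 13 and Lhx6 exceeded Dlx6os1 in 18. Every library had Dlx6os1 above Dlx6. Dlx6 (100 ± 24.5), Dlx2 (93.2 ± 15.8), Dlx5 (74.1 ± 13.5) and Sox6 (67.8 ± 7.25) were lower. Dlx6 exceeded Dlx2 in 17 libraries and Dlx5 exceeded Sox6 in 14, again within their spread, while Dlx2 exceeded Dlx5 in all 23. The order depended on the length used. With the length of the longest transcript in place of all exons, Dlx1 moved to the second place and Dlx6 to the last, and Dlx5 (118 ± 21.5) exceeded Dlx2 (108 ± 18.3) in 18 libraries. These levels per kilobase lay between percentile 43.5 for Sox6 and 66.8 for Satb1. The percentiles are among the 15830 detected protein-coding genes whose identifier matched the GENCODE M21 annotation with its version.

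The steadiest of the 9 across the 23 libraries was Maf and the most variable was Dlx6. The coefficient of variation of normalized counts was 6.79% for Maf, 8.53% for Lhx6, 10.7% for Sox6, 12.7% for Satb1 and 13.7% for Dlx6os1. It was 16.5% for Dlx1, 17.0% for Dlx2, 18.3% for Dlx5 and 24.5% for Dlx6.

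The first comparison asked whether the hippocampus of fathers that ran differed from that of sedentary fathers. The 4 Dlx homeobox genes were each higher on average in exercised fathers, by 1.24-fold to 1.38-fold, and the log2 fold changes of the other 5 genes lay between -0.09 and 0.03. No gene of the 9 passed limma's test, which ran on log2(normalized count + 1) over 17493 genes with a Benjamini-Hochberg adjusted p threshold of 0.05 and called 0 genes in all (0%). In bulk tissue, fewer cells of a type and less RNA per cell cannot be told apart.

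**Figure D1:**
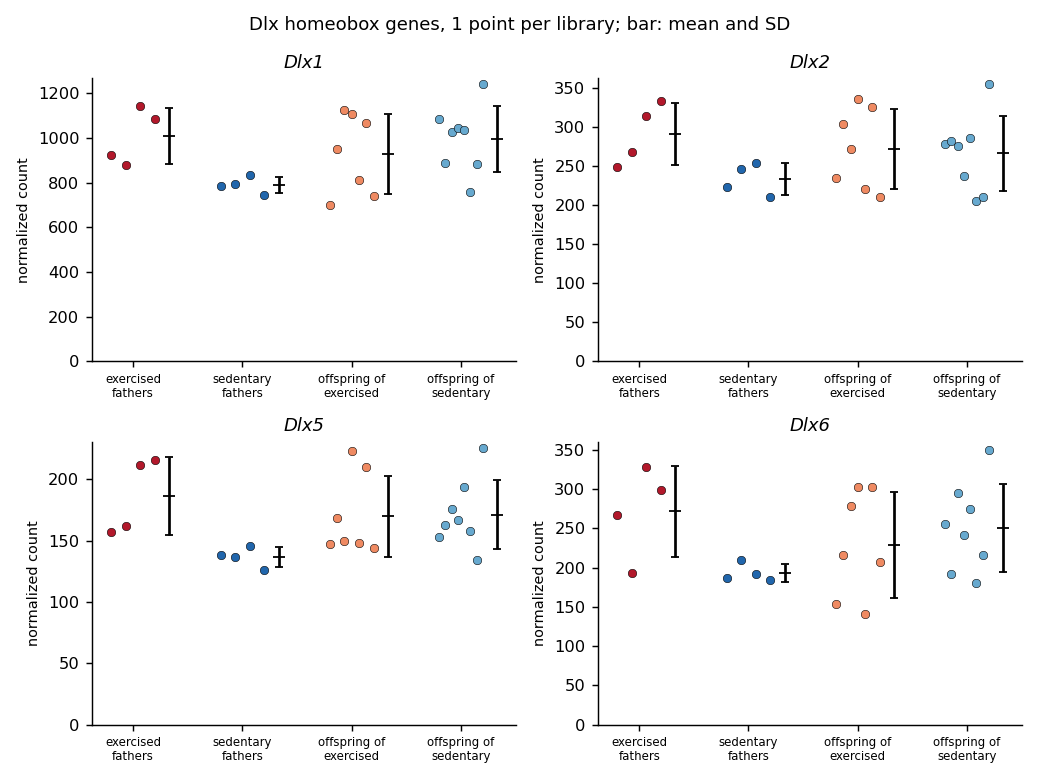
Normalized counts of Dlx1, Dlx2, Dlx5 and Dlx6 in each library (points) of the 4 groups, with the mean and SD of each group as bars. The exercised fathers lie above every sedentary father for Dlx1 and Dlx5, and both offspring groups overlap with both groups of fathers.

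Dlx1 had 926, 880, 1145 and 1087 normalized counts in the exercised fathers, against 783, 792, 833 and 746 in the sedentary fathers. Every exercised library was above every sedentary one, and libraries 3 and 4 of the exercised fathers were the highest. The difference on the log2 scale was 0.35 (SE 0.08, limma adjusted p = 0.539, two-sided exact permutation p = 0.0286, the smallest that 4 against 4 libraries allow). DESeq2, an alternative count test run on whole reads recovered from the normalized counts, gave 0.36 with an adjusted p = 0.0397, and edgeR gave an adjusted p = 0.51. Over all 23 alternative settings the adjusted p for Dlx1 lay between 0.0397 and 0.917, and its log2 fold change between 0.285 and 0.41.

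Dlx2, the neighbour of Dlx1, had 249, 268, 314 and 333 normalized counts in the exercised fathers, against 223, 246, 253 and 210 in the sedentary fathers. The groups overlapped at exercised library 1 and sedentary library 3. On the log2 scale the difference came to 0.31 (SE 0.11, limma adjusted p = 0.558, exact permutation p = 0.0571).

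Dlx5 had 157, 162, 212 and 216 normalized counts in the exercised fathers, against 138, 137, 146 and 126 in the sedentary fathers. The groups did not overlap, and exercised libraries 3 and 4 again led. On the log2 scale the difference came to 0.43 (SE 0.13, limma adjusted p = 0.539, exact permutation p = 0.0286). Dlx5 rested on few reads, 122 to 168 in the sedentary fathers, whose coefficient of variation of 5.92% lay below the counting error of 8.28% at their mean. Dlx6 had 267, 194, 328 and 299 normalized counts in the exercised fathers, against 186, 210, 192 and 184 in the sedentary fathers. Exercised library 2 lay within the sedentary range and the other 3 lay above it. Dlx6 had 173 to 258 reads in the sedentary fathers, whose coefficient of variation of 6.13% also lay below the counting error of 6.95%. On the log2 scale the difference came to 0.47 (SE 0.15, limma adjusted p = 0.539, exact permutation p = 0.0571).

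In counts, 4 of the 9 genes had an unadjusted limma p under 0.05, all higher in the exercised fathers, against 4.44% of all genes tested in that direction. Dlx1 and Dlx5, 2 of the 9, did not overlap between groups, against 2.66% of all genes in that direction. The medians were 0.39 for the 4 Dlx genes, 0.03 for all 9 and 0.00 for all genes tested. These 4 genes vary together from library to library (below), so they are not 4 independent observations. Among members edgeR called 0 and DESeq2 called 1, Dlx1, while DESeq2 called 0.157% of all genes. Both gave 4 members an unadjusted p under 0.05 in the higher direction, as they did 4.2% of all genes in edgeR and 2.56% in DESeq2, and DESeq2 gave no adjusted p for Dlx5. Without exercised library 3 or without exercised library 4, 3 of the 9 genes had an unadjusted limma p under 0.05, all higher, against 3.36% and 2.58% of all genes in that direction. With all 4 groups in 1 fit 2 of the 9 did, against 2.98% of all genes. In the authors' deposited table, whose fold changes run exercised over sedentary, the unmoderated log2 fold changes were 0.22 for Dlx1, 0.23 for Dlx2, 0.32 for Dlx5 and 0.31 for Dlx6, each with an adjusted p of 1, and so smaller than the differences computed from the deposited normalized counts.

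Dlx6os1, in whose span Dlx6 lies, had 704, 896, 821 and 691 normalized counts in the exercised fathers, against 970, 858, 692 and 579 in the sedentary fathers. Its ranges overlapped, with the sedentary fathers the more widely spread, and the log2 fold change was 0.03 (SE 0.15, 95% interval from -0.31 to 0.36). Within the sedentary fathers, libraries 3 and 4, which were high in thalamus genes, were the lowest in Dlx6os1. Without both, the log2 fold change was -0.24, and without libraries 1 and 2 it was 0.29, so the sign depended on which libraries entered.

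The other 4 genes, Lhx6, Sox6, Satb1 and Maf, differed little between the fathers. Lhx6 averaged 776 ± 68.2 normalized counts in the exercised fathers against 766 ± 58.4 in the sedentary ones (SD over 4 libraries), with a log2 interval from -0.16 to 0.19. Sox6 averaged 1006 ± 64.8 in exercised and 1026 ± 105 in sedentary fathers, with an interval from -0.20 to 0.15. Satb1 averaged 4642 ± 298 in exercised and 4945 ± 615 in sedentary fathers (interval -0.27 to 0.10), and Maf 1354 ± 47.4 in exercised and 1396 ± 81.4 in sedentary fathers (interval -0.16 to 0.07). All 4 overlapped between groups, with limma adjusted p values from 0.781 to 0.961.

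**Figure D2:**
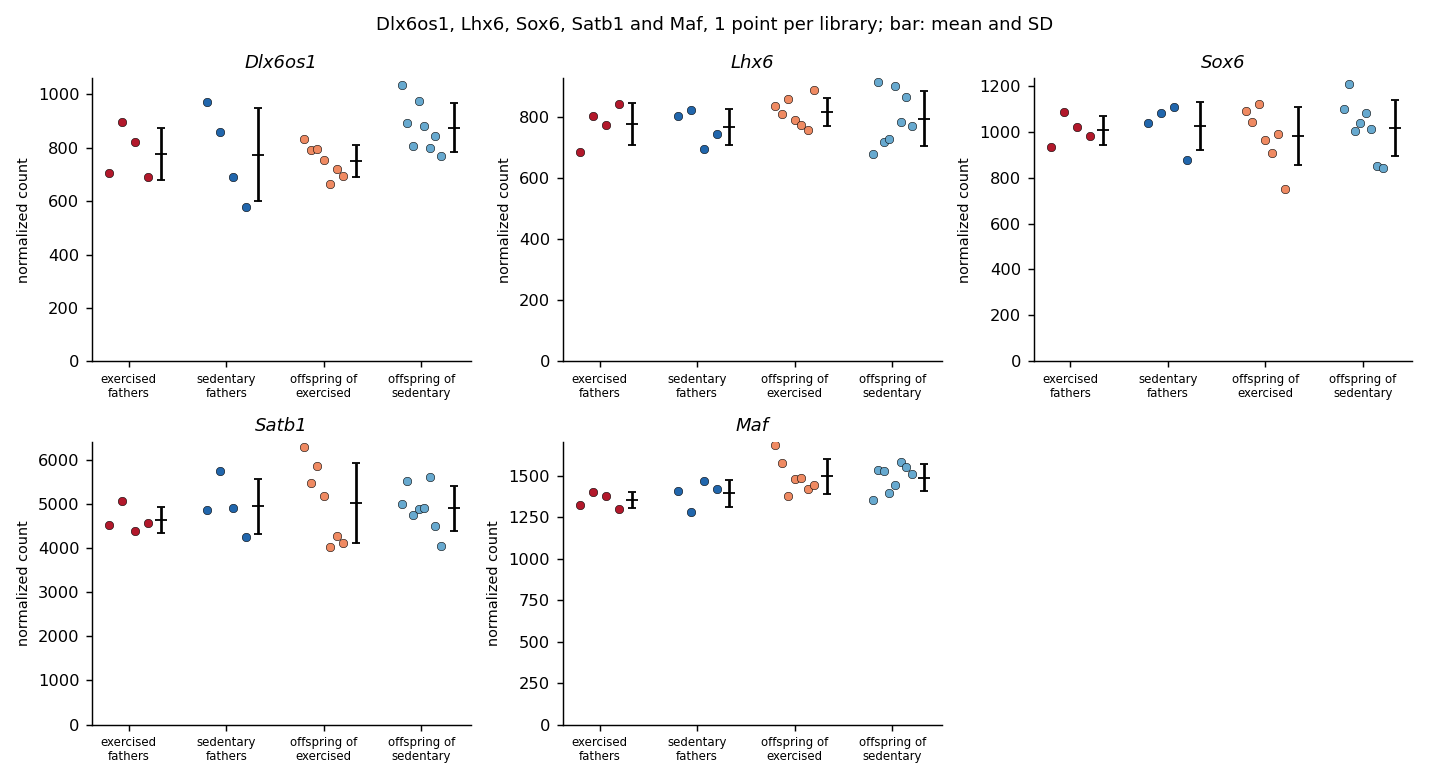
Normalized counts of Dlx6os1, Lhx6, Sox6, Satb1 and Maf in each library (points) of the 4 groups, with the mean and SD of each group as bars. Dlx6os1 in the offspring of exercised fathers lies below the median of the offspring of sedentary fathers in all 7 libraries, and the other genes overlap throughout.

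Markers of neighbouring regions also differed on average between the fathers. Of 12 genes of the striatum and septum, 9 were higher on average in exercised fathers and 0 passed limma, with a median log2 fold change of 0.17 against 0.00 over all genes. Their summed counts ranged from 10045 to 12910 in exercised and from 9640 to 12702 in sedentary fathers, and none was at 0. The mean of that list was used as a covariate after the data were seen. The log2 fold changes then were 0.30 for Dlx1, 0.27 for Dlx2, 0.38 for Dlx5 and 0.38 for Dlx6. Without it they were 0.35, 0.31, 0.43 and 0.47 in that order. Of 10 genes of immature neurons, 5 were higher and 5 lower in exercised fathers. Of 12 thalamus genes, 1 was higher in exercised fathers, with sums of 9067 to 11974 in exercised and 9139 to 25258.5 in sedentary fathers. Without sedentary libraries 3 and 4 the Dlx log2 fold changes were 0.35, 0.30, 0.42 and 0.43 in the order Dlx1, Dlx2, Dlx5, Dlx6. All 12 choroid plexus genes were higher on average in exercised fathers, with sums of 53874 to 195959 in exercised and 2826 to 186826 in sedentary fathers. All 10 endothelial genes were lower on average in exercised fathers, 4 of them at an unadjusted limma p under 0.05, 0 passing limma, with a median log2 fold change of -0.21 and sums of 7033 to 9519 in exercised and 8761 to 9941 in sedentary fathers. The share of all genes lower at that threshold is not given here, so the 4 stand without a baseline. What part any of these lists had in the result was not tested.

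The second comparison asked whether the offspring of exercised fathers differed from the offspring of sedentary fathers, none of which is labelled with exercise of its own. The 4 Dlx homeobox genes overlapped broadly, and the largest difference among the 9 was a lower average of Dlx6os1, at 0.86 times its level in the offspring of sedentary fathers. No gene of the 9 passed limma, which called 0 of 17522 genes (0%).

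Dlx6os1 had 666 normalized counts in the lowest, 753 in the median and 832 in the highest library of the 7 offspring of exercised fathers. The 8 offspring of sedentary fathers had 769 in the lowest, 863 in the median and 1037 in the highest. The groups overlapped, but all 7 offspring of exercised fathers lay below the median of the offspring of sedentary fathers. This was a log2 difference of -0.22 (SE 0.07, limma adjusted p = 0.382, two-sided exact permutation p = 0.00715 before any adjustment over the 9 genes). DESeq2 gave an adjusted p = 0.128 and edgeR 0.379. Over 29 alternatives the log2 fold change stayed between -0.26 and -0.17 and the adjusted p between 0.128 and 0.646. The titles of the 7 offspring of exercised fathers fall into 4 stems when the last character is left off, those of the 8 offspring of sedentary fathers into 8, and the labels do not say what a stem marks. If libraries of a stem share a source, the SE and p above are too small. With such libraries averaged the difference was -0.23 (limma adjusted p = 0.625, unadjusted p = 0.0112). There are 2 offspring libraries, both of exercised fathers, that carry the same barcode label. With the striatum and septum covariate the Dlx6os1 difference was -0.21. Of the 12 genes of that list, 4 were higher on average in the offspring of exercised fathers and 0 passed limma, with sums of 7749 to 12869 in the offspring of exercised and 9876 to 13071 in the offspring of sedentary fathers, and none at 0. The authors' deposited table gives an unmoderated log2 fold change of -0.22 for Dlx6os1, with an adjusted p of 0.4.

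Dlx6os1 was the 1 gene of the 9 with an unadjusted limma p under 0.05, against 5.48% of all genes in the lower direction, and 0 of the 9 failed to overlap, against 0.0742% of all genes in the lower direction. DESeq2, which called 0.132% of all genes, and edgeR also called 0 of the 9. Each gave 1 of the 9 an unadjusted p under 0.05, against 3.5% of all genes in DESeq2 and 4.85% in edgeR in the lower direction. Dlx6, whose gene lies inside the span of Dlx6os1, had 141, 216 and 303 normalized counts (lowest, median, highest) in the offspring of exercised fathers, against 180, 249 and 350 in the offspring of sedentary fathers. Its log2 fold change was -0.16 with a wide interval from -0.53 to 0.22.

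Dlx1 had 701, 949 and 1125 normalized counts (lowest, median, highest) in the offspring of exercised fathers, against 756, 1030 and 1240 in the offspring of sedentary fathers. The ranges covered each other almost entirely. Its log2 fold change was -0.11 (95% interval -0.35 to 0.14), that of Dlx2 0.03 (-0.24 to 0.29) and that of Dlx5 -0.02 (-0.27 to 0.23). Lhx6 averaged 816 ± 47.2 normalized counts in the offspring of exercised and 794 ± 88.8 in the offspring of sedentary fathers (SD, n = 7 and 8), an interval from -0.09 to 0.18. Sox6 (-0.24 to 0.13), Satb1 (-0.18 to 0.23) and Maf (-0.09 to 0.10) likewise had intervals on both sides of 0. The narrow interval of Maf reached about 0.1 on the log2 scale to either side. If libraries of a title stem share a source, these intervals are too narrow.

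**Figure D3:**
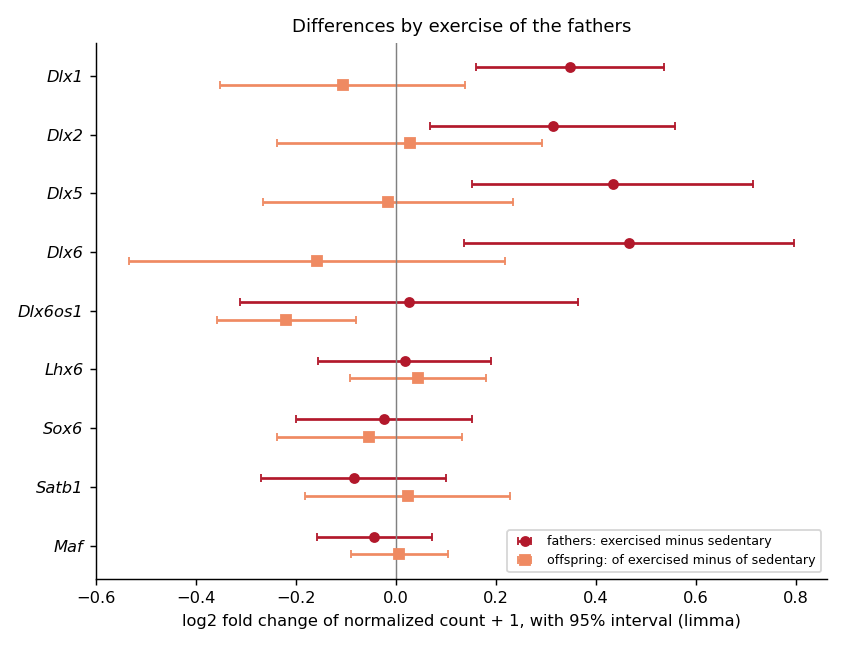
Log2 fold change of each gene (points) with its 95% interval from limma (bars), for exercised minus sedentary fathers and for offspring of exercised minus offspring of sedentary fathers. The intervals of Dlx1, Dlx2, Dlx5 and Dlx6 lie above 0 in the fathers and include 0 in the offspring, while that of Dlx6os1 lies below 0 in the offspring only, and none of these passed after adjustment over all genes.

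Whether the difference by exercise itself differed between generations was tested with an interaction over all 23 libraries, as the fathers' difference minus the offspring's. It was 0.455 for Dlx1 (SE 0.18), 0.29 for Dlx2 (SE 0.20), 0.45 for Dlx5 (SE 0.19) and 0.62 for Dlx6 (SE 0.28), with limma adjusted p values of 0.816, 0.914, 0.849 and 0.851. Limma called 0 of 18377 genes (0%) and 0 of the 9. Dlx1, Dlx5 and Dlx6, 3 of the 9, had an unadjusted p under 0.05, against 3.04% of all genes in that direction, and edgeR and DESeq2 also called 0 of the 9, DESeq2 with 0.0185% of all genes called. Both gave the same 3 an unadjusted p under 0.05, against 2.98% of all genes in edgeR and 1.9% in DESeq2. With the striatum and septum list as a covariate the interaction was 0.28 for Dlx1, 0.10 for Dlx2, 0.29 for Dlx5 and 0.36 for Dlx6, and Dlx1 alone kept an unadjusted p under 0.05. For Dlx6os1 the interaction was 0.245 (SE 0.15, limma adjusted p = 0.909), and for Lhx6, Sox6, Satb1 and Maf it lay between -0.11 and 0.03. A different response in the generations was thus not shown for any of the 9.

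Fathers and offspring were also compared within each exercise group, in 1 fit over the 4 groups. Sedentary fathers were lower than the offspring of sedentary fathers in all 4 Dlx homeobox genes on average, with log2 differences of -0.32 for Dlx1 (SE 0.13, limma adjusted p = 0.265), -0.175 for Dlx2, -0.31 for Dlx5 (SE 0.13, limma adjusted p = 0.32) and -0.345 for Dlx6. In the same comparison all 12 thalamus genes were higher in sedentary fathers (median 0.47, 8 at an unadjusted limma p under 0.05), with sums of 9139 to 25258.5 in sedentary fathers and 8808 to 11916 in the offspring of sedentary fathers. The share of all genes higher in sedentary fathers at that threshold is not given here, so the 8 stand without a baseline. All 12 choroid plexus genes (median -0.53) and all 10 pyramidal and granule cell genes (median -0.115) were lower, with pyramidal and granule sums of 106908 to 120125 in sedentary fathers and 116164 to 137745 in the offspring of sedentary fathers. Choroid plexus sums were 2826 to 186826 in sedentary fathers and 3539 to 190115 in the offspring of sedentary fathers. None of the genes of these 3 lists passed limma. Without sedentary libraries 3 and 4, the highest in thalamus genes, the log2 differences were -0.32 for Dlx1, -0.16 for Dlx2, -0.30 for Dlx5 and -0.31 for Dlx6, each at an unadjusted limma p over 0.05. The part of the choroid plexus and pyramidal and granule cell lists in the result was not tested. Exercised fathers were higher than the offspring of exercised fathers in the same 4 genes, by 0.13, 0.11, 0.14 and 0.28 in that order, with intervals that include 0. The comparison shares its fathers with the one by exercise, so it is not a separate observation. Limma called 0 of the 9 in either, against 0.299% of all genes in the sedentary and 0.0653% in the exercised groups. At an unadjusted p under 0.05 there were 2 of the 9 in the sedentary groups, Dlx1 and Dlx5, both lower in fathers, where 6.71% of all genes were. In the exercised groups Maf alone had an unadjusted p under 0.05, lower in fathers, where 5.68% of all genes were. In the sedentary groups edgeR (0.457% of all genes called) and DESeq2 (1.1%) called 0 of the 9 as well. Each gave 2 of the 9 an unadjusted p under 0.05, against 7.28% of all genes in edgeR and 4.2% in DESeq2 in the lower direction. In the exercised groups edgeR (0.0544% called) and DESeq2 (0.343%) called 0 of the 9 and gave 1 of them an unadjusted p under 0.05, against 6.33% and 3.5% of all genes.

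Maf averaged 1354 ± 47.4 normalized counts (SD) over the 4 exercised fathers, against 1497 ± 104 over the 7 offspring of exercised fathers. The lowest, median and highest were 1303, 1353 and 1406 in exercised fathers, against 1380, 1480 and 1686 in the offspring. They overlapped at the edge. The log2 difference was -0.14 (SE 0.05, limma adjusted p = 0.329), and in the sedentary groups it was -0.09 (SE 0.05). Maf also correlated with endothelial genes across libraries (below), and 9 of the 10 genes of that list were lower in exercised fathers, with sums of 7033 to 9519 in exercised fathers and 8584 to 11554 in the offspring of exercised fathers. Maf had r = 0.56 with the choroid plexus list, which missed the threshold (permutation adjusted p = 0.0801). All 12 genes of that list were higher on average in exercised fathers (median 1.09). Its sums were 53874 to 195959 in exercised fathers and 4019 to 209565 in the offspring of exercised fathers. The part of either list in the Maf difference was not tested. Among the marker lists, the genes that passed limma were lower in fathers. In the sedentary groups these were Sox4 (-0.31) and Sox11 (-0.52), factors of immature neurons, Gpr17 (-0.41), of differentiating oligodendrocyte precursors, and Cldn5 (-0.44), a tight junction protein of endothelium. In the exercised groups it was Cldn5 (-0.57).

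From library to library within the groups, the 4 Dlx homeobox genes varied together, and so did Sox6, Satb1 and Dlx6os1. Of 36 pairs, 9 correlated after the mean of each of the 4 groups was subtracted (Benjamini-Hochberg over the pairs, 100000 permutations of libraries within groups), all 9 positively. The permutations treat the libraries of a group as exchangeable. If offspring libraries of a title stem share a source, the permutation p values here and below are too small. All 6 pairs among Dlx1, Dlx2, Dlx5 and Dlx6 were among them. The other 3 linked Sox6, Satb1 and Dlx6os1. Lhx6 and Maf correlated with none of the others at that threshold.

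Dlx1 and Dlx6, on different chromosomes, had the highest Pearson's r, 0.88 (Spearman's rho 0.91, permutation adjusted p = 0.00036 over 36 pairs, n = 23), and 0.83 without the 2 libraries farthest from the median of Dlx1. It was 0.86 within the fathers and 0.88 within the offspring. The neighbours Dlx1 and Dlx2 had r = 0.83 (rho 0.79, permutation adjusted p = 0.00081) and the neighbours Dlx5 and Dlx6 r = 0.72 (rho 0.71, permutation adjusted p = 0.00762), which fell to 0.61 without the 2 farthest libraries. Dlx6 and Dlx6os1, in the same locus, had r = -0.06 (rho -0.07, permutation adjusted p = 0.876), and -0.105 without the 2 farthest.

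Sox6 and Satb1 had r = 0.78 (rho 0.76, permutation adjusted p = 0.00036, n = 23), 0.77 within the fathers and 0.78 within the offspring, and 0.70 without the 2 farthest. Dlx6os1 had r = 0.59 with Sox6 (rho 0.65, permutation adjusted p = 0.0101; 0.48 without the 2 farthest) and 0.56 with Satb1 (rho 0.60, permutation adjusted p = 0.0142; 0.52 without the 2 farthest). Lhx6, which acts upstream of Sox6 and Satb1 in development, had r = 0.06 with Sox6 and 0.23 with Satb1, with permutation adjusted p values of 0.876 and 0.703. Maf had negative r with Dlx1 (-0.50, rho -0.485, permutation adjusted p = 0.107) and Dlx6 (-0.48, rho -0.48, permutation adjusted p = 0.123), which missed the threshold. With the fathers alone, 8 libraries, 0 of the 36 pairs passed, though r among the 6 Dlx pairs was 0.60 to 0.95. With the offspring alone 9 pairs passed.

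**Figure D4:**
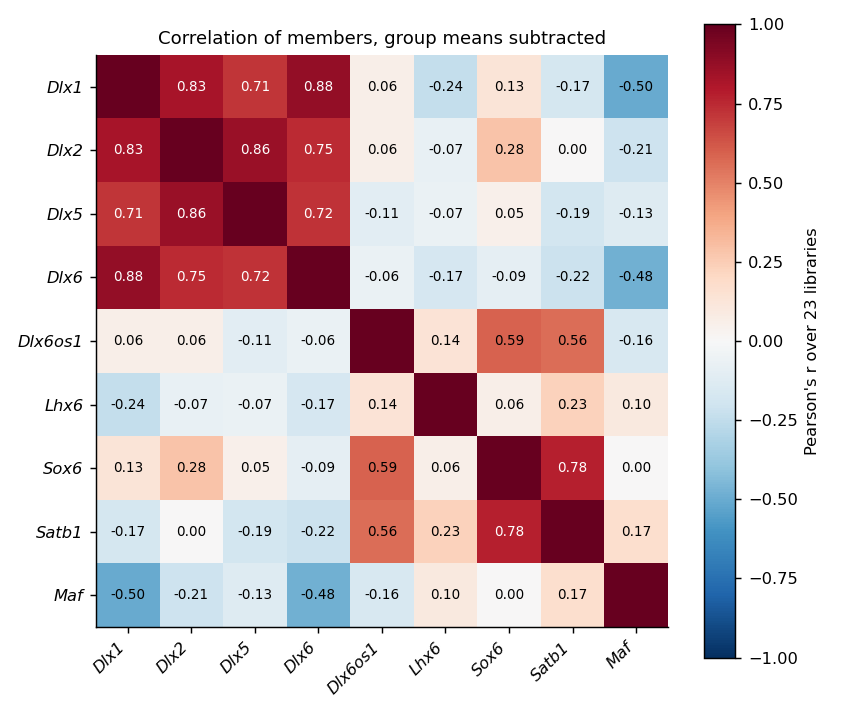
Pearson's r between the 9 genes over 23 libraries, on log2(normalized count + 1) with the mean of each group subtracted; red is positive and blue negative. Dlx1, Dlx2, Dlx5 and Dlx6 form a block with r from 0.71 to 0.88, and Sox6 and Satb1 stand at 0.78.

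The genes most like each member give a further description, as the 3 with the highest r over the same 23 libraries among 18376 other genes. Dlx1 was most like Sox1 (r = 0.96), a transcription factor of neural progenitors, Sp9 (0.93), a zinc finger factor of GABAergic lineages, and Ano2 (0.92), a calcium-activated chloride channel. Dlx2 was most like Dlx5 (0.86), Sox1 (0.84) and Sp9 (0.84). Dlx6 was most like Fndc9 (0.92), Sox1 (0.88) and Dlx1 (0.88). Dlx5 was most like Dlx2 (0.86), the calcitonin receptor gene Calcr (0.77) and neuroglobin, Ngb (0.75).

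The remaining 5 had different partners. Satb1 was most like Arhgap32 (0.95), Tbr1 (0.95), a T-box factor of glutamatergic neurons, and Vwc2l (0.95). With the mean of the pyramidal and granule cell list, however, Satb1 had r = -0.14 (rho -0.10, permutation adjusted p = 0.778). That r was 0.625 within the fathers and -0.30 within the offspring. Sox6 was most like Mta3 (0.91), Ntrk2 (0.90), the receptor of brain-derived neurotrophic factor, and Lpgat1 (0.895). Dlx6os1 was most like Cacna1e (0.89), a voltage-gated calcium channel, Nol8 (0.88) and Gm26564 (0.865). Lhx6 was most like Tacr3 (0.81), the neurokinin B receptor, Slc6a7 (0.805), a proline transporter, and Gm16702 (0.80). Maf was most like Myzap (0.83), Bmp5 (0.795) and elastin, Eln (0.79).

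The mean of each of 11 marker lists was set against each member across the libraries, in 99 relations, of which 16 passed after Benjamini-Hochberg adjustment. The limit from shared title stems holds for these permutation p values as well. Of these 16, 13 belonged to Dlx1, Dlx2, Dlx5 or Dlx6. These 4 followed the striatum and septum list, with r = 0.77 for Dlx1 (rho 0.82, permutation adjusted p = 0.00297, n = 23), 0.745 for Dlx2 (rho 0.735, permutation adjusted p = 0.00337), 0.66 for Dlx5 (rho 0.66, permutation adjusted p = 0.0134) and 0.74 for Dlx6 (rho 0.80, permutation adjusted p = 0.00619). Without the 2 libraries farthest from the median of the list, r was 0.73, 0.64, 0.62 and 0.77 in that order. Within the offspring it was 0.74 to 0.87, and within the fathers 0.36 to 0.54.

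The same 4 genes also followed the other lineage factors (r from 0.66 to 0.81) and the immature neuron list (0.67 to 0.81). Dlx2 alone of the 4 passed with the GABAergic list (r = 0.60, rho 0.63, permutation adjusted p = 0.0441; 0.74 without the 2 farthest), where r was 0.50 for Dlx1, 0.37 for Dlx5 and 0.23 for Dlx6. No gene of the striatum and septum list stands in another list, and Calb2 stands in the immature neuron, thalamus and subtype lists. Dlx6os1 had r = -0.29 with the striatum and septum list (rho -0.29, permutation adjusted p = 0.474), at -0.85 within the fathers and 0.16 within the offspring. With the choroid plexus list it had r = -0.58 (rho -0.615, permutation adjusted p = 0.0655), at -0.78 within the fathers and -0.50 within the offspring. With the thalamus list it had r = -0.68 (rho -0.455, permutation adjusted p = 0.106), at -0.89 within the fathers and -0.14 within the offspring. Both missed the threshold. Lhx6 followed the interneuron subtype list (r = 0.64, rho 0.67, permutation adjusted p = 0.0267; 0.57 without the 2 farthest), and Sox6 the GABAergic list (r = 0.68, rho 0.65, permutation adjusted p = 0.00832; 0.51 without the 2 farthest). Maf followed the endothelial list (r = 0.54, rho 0.53, permutation adjusted p = 0.0441, and r = 0.53 without the 2 farthest). Its r with the choroid plexus list was 0.56 (rho 0.46, permutation adjusted p = 0.0801), which missed the threshold. With the GABAergic and subtype lists r was -0.07 and 0.08 for Maf, and 0.32 and 0.24 for Satb1, and none of these passed. With the striatum and septum mean regressed out, r among the 6 Dlx pairs was 0.42 to 0.73.

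**Figure D5:**
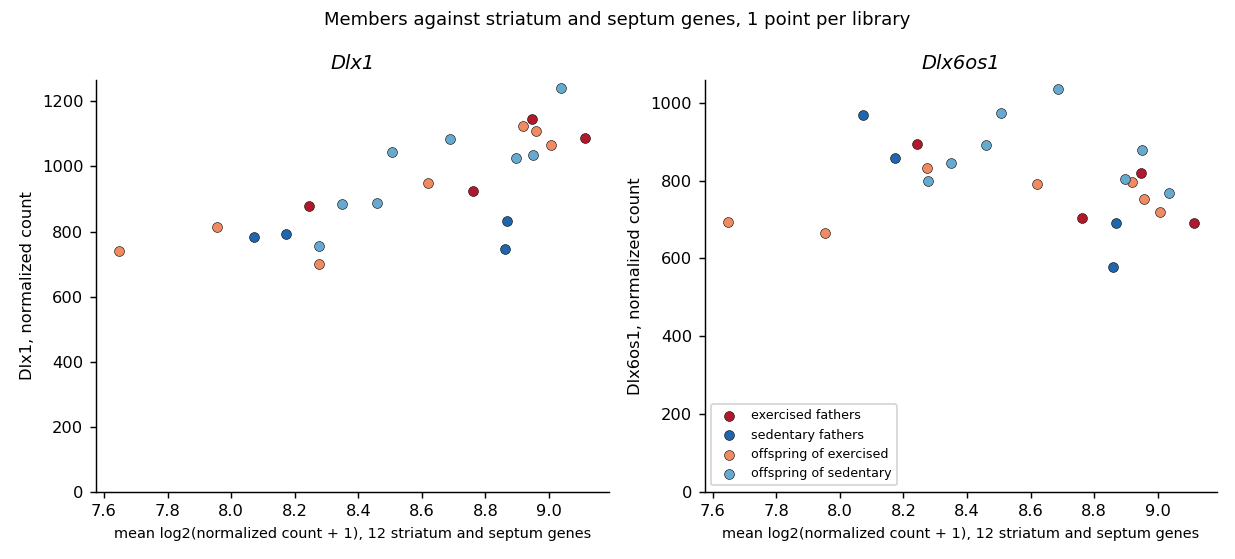
Normalized counts of Dlx1 (left) and Dlx6os1 (right) in each of 23 libraries against the mean log2(normalized count + 1) of 12 striatum and septum genes, coloured by group. Dlx1 climbs with the list in most libraries (r = 0.77 with group means subtracted), except that sedentary fathers 3 and 4 stand at 833 and 746 Dlx1 counts at list means of 8.87 and 8.86, and Dlx6os1 does not climb (r = -0.29).

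Of 20 other transcription factors of the interneuron lineage, 16 were tested in the fathers and 0 passed limma. At an unadjusted p under 0.05, 3 were higher and 1 lower in the exercised fathers, against 4.44% of all genes in the higher direction. The median log2 fold change of the 16 was -0.03, against 0.00 over all genes. The 3 with the smallest p were Sp9 (log2 fold change 0.455), Nkx2-1 (1.00) and Sp8 (0.81). Sp9 averaged 452 ± 77.6 normalized counts in the exercised fathers against 329 ± 55.2 in the sedentary ones (SD over 4 libraries). Nkx2-1 had 42.6 ± 18.2 in exercised and 19.4 ± 5.01 in sedentary fathers, and Sp8 had 198 ± 75.9 in exercised and 112 ± 46.6 in sedentary fathers. All 3 overlapped between groups. Nkx2-1, the factor that specifies the medial ganglionic eminence, also marks septal cells in the adult.

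Of 15 subtype markers tested in the fathers, 10 were higher on average, 0 passed limma and 3 had an unadjusted p under 0.05, all higher, against 4.44% of all genes in that direction. These were the neuropeptide genes Sst, which encodes somatostatin (log2 fold change 0.22, SE 0.04), Npy, which encodes neuropeptide Y (0.25, SE 0.05), and Cort, which encodes cortistatin (0.42, SE 0.11), each with a limma adjusted p = 0.539. In all 3 the groups did not overlap, as in 2.66% of all genes in that direction. Sst averaged 6550 ± 264 normalized counts in the exercised fathers against 5628 ± 172 in the sedentary ones (SD over 4 libraries). Npy had 1215 ± 54.9 in exercised and 1025 ± 51.3 in sedentary fathers. Cort averaged 183 ± 18.2 in exercised and 136 ± 12.8 in sedentary fathers. Lhx6, which marks the cells that make somatostatin, differed by 0.02 in the same libraries. Among 12 GABAergic genes 5 were higher and 7 lower, and 0 passed. The smallest p values belonged to Kcnc2, a potassium channel of fast-spiking cells (-0.22, SE 0.08), Elfn1, a synaptic protein of somatostatin cells (0.18, SE 0.08), and Slc32a1, the vesicular GABA transporter (0.20, SE 0.12).

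In the offspring, 17 of the 20 other lineage factors were tested and 0 passed limma. At an unadjusted p under 0.05, 1 was lower in the offspring of exercised fathers, against 5.48% of all genes in that direction, and 3 were higher. The share of all genes higher at that threshold is not given here, so the 3 stand without a baseline. Nr2f1, a nuclear receptor, averaged 3570 ± 218 normalized counts (SD) over the 7 offspring of exercised fathers against 3190 ± 255 over the 8 offspring of sedentary fathers, a log2 fold change of 0.16 (SE 0.05, limma adjusted p = 0.399). Dlx4, another homeobox gene of the Dlx family, stood at 0.57 (SE 0.25) on a low level, 14.9 ± 5.05 normalized counts in the offspring of exercised and 9.67 ± 3.11 in the offspring of sedentary fathers. Of the 12 GABAergic genes 0 passed and 0 had an unadjusted p under 0.05, and the smallest p values belonged to Gad2 (-0.115, SE 0.09), Elfn1 (-0.07) and Gad1 (-0.05). Of the 15 subtype markers 0 passed and 0 had an unadjusted p under 0.05, and the smallest belonged to Ndnf (-0.20, SE 0.12), Cck (0.09) and Htr3a (0.11).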

How the data were processed

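Strand-specific poly(A) RNA-seq of the hippocampus was read from the authors' tables for 23 libraries. The deposited signal is a normalized count, which the authors scaled with a single size factor for each library. The deposited comparison tables give the authors' log2 fold changes, their test statistic as a score, and their p-values. GRCm38, DESeq2 1.10, RSEM 1.2.28 and STAR 2.5.2a are named, without their roles, in the submitters' processing notes. The titles of the tables, normalized counts included, speak of a dropped outlier without naming it.

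Of the 51912 identifiers, 51633 matched GENCODE M21 without their version and 47648 with it. Libraries held 33667580 to 55172616 reads, and members at least 120 reads each, so counting error is part of the spread of the lowest of them. Groups came from the labels, which do not say that libraries are separate animals or litters, so p-values measure only the spread between these libraries. Pairs of replicates all differed beyond sampling noise.

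Limma 3.58.1 (R 4.3.3) was fitted with a trend on log2(normalized count + 1) over all genes with at least 10 normalized counts in 4 libraries (fathers, or all groups) or 7 (offspring). Tests were two-sided, with Benjamini-Hochberg adjustment over all genes and a threshold of 0.05. A fold change on this scale understates the change of low genes. Whole reads were recovered from all libraries within 0.1 reads and used for edgeR 4.0.16 (TMM) and DESeq2 1.42.0 as alternatives. Other alternatives were pseudocounts of 0.5 and 5, no filter or 50 counts, quantile normalization, library weights, 4 groups in 1 fit, marker covariates, a GC correction and leaving out libraries. Permutations used 100000 resamples within groups (numpy 2.4.6, scipy 1.17.1, pandas 2.3.3, Python 3.11.15). The scripts were tested on simulated data.

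The members and lists were chosen with earlier results of these data known. All 9 members are named. From the other lists come the genes past the threshold and, in each comparison by exercise, the 3 with the smallest p of each interneuron list. The 3 genes with the highest r are named for each member. A gene that this rule would name is not reported here.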

Additional observations from a re-analysis of the deposited data

How the results depend on the processing

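With 4 libraries a group in the fathers, differences of the size seen did not pass adjustment over all genes by limma. Every member had at least 120 reads in a library. Under DESeq2, 1 member was called in the fathers by exercise (Dlx1). Without sedentary fathers 1 and 2, 1 member was called between sedentary fathers and the offspring of sedentary fathers (Dlx6os1, log2 difference -0.46, limma adjusted p = 0.0465), where 0.302% of all genes were called lower and 0.916% in either direction. With the fathers alone, 0 of 36 pairs of members passed the threshold for correlation, in place of 9. Within the fathers r was still 0.60 to 0.95 for the 6 Dlx pairs and 0.77 for Sox6 and Satb1. With only 8 libraries, missing the threshold does not show that the pairs varied apart. With limma, no member was called when any 1 library was left out. The striatum and septum covariate and the GC correction were added after the data were seen. No paired analysis was possible because the labels give no replicate numbers shared between groups. The sign of a log2 difference turned in 86 values of 22 of 45 member results, 46 of them with 1 library left out. The cause was not tested.

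Between exercised and sedentary fathers, Dlx6os1 turned to -0.033 with library weights, -0.000319 in edgeR, -0.238 without sedentary fathers 3 and 4 and -0.219 with the thalamus covariate. Lhx6 turned to -0.00641 with quantile normalization, -0.009 with library weights, -0.0715 without sedentary fathers 3 and 4, -0.0247 without the libraries whose barcode label starts with AD21, -0.0148 with the thalamus covariate and -0.0351 with the GC correction. Sox6 turned to 0.0284 without sedentary fathers 1 and 2 and 0.0143 with the striatum and septum covariate, Satb1 to 0.0207 without sedentary fathers 1 and 2, and Maf to 0.00839 without sedentary fathers 3 and 4. With 1 library left out the ranges were -0.105 to 0.143 (Dlx6os1), -0.0298 to 0.0765 (Lhx6) and -0.099 to 0.0146 (Sox6).

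Between the offspring groups, library weights gave 0.0211 for Dlx1, 0.0523 for Dlx5 and -0.0262 for Maf. Averaging libraries whose titles differ in the last character gave -0.00487 for Dlx2 and -0.0089 for Satb1. The GC correction gave -0.0253 for Dlx2, the thalamus covariate 0.0451 for Dlx5, the striatum and septum covariate 0.0532 for Dlx5 and -0.0021 for Maf, and leaving out the AD21 libraries -0.0413 for Satb1. With 1 library left out the ranges were -0.0271 to 0.0888 (Dlx2), -0.0849 to 0.0428 (Dlx5), -0.0908 to 0.00917 (Sox6), -0.0341 to 0.0737 (Satb1) and -0.0223 to 0.0259 (Maf).

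In the interaction, leaving out sedentary fathers 3 and 4 gave -0.0183 for Dlx6os1, -0.0239 for Sox6 and 0.00169 for Maf, and leaving out 1 and 2 gave 0.0613 for Lhx6. The striatum and septum covariate gave 0.0104 for Lhx6 and -0.00417 for Sox6, and library weights -0.0153 for Sox6 and 0.0162 for Maf. With 1 library left out the ranges were -0.0741 to 0.0322 (Lhx6) and -0.0455 to 0.0681 (Sox6). Between sedentary fathers and the offspring of sedentary fathers, leaving out sedentary fathers 3 and 4 gave 0.066 for Dlx6os1 and 0.0405 for Lhx6, leaving out 1 and 2 gave -0.0369 for Sox6 and -0.0949 for Satb1, leaving out the AD21 libraries gave -0.0687 for Sox6 and -0.0538 for Satb1, and the GC correction gave -0.00343 for Satb1. The ranges with 1 library left out were -0.0232 to 0.0904 (Sox6) and -0.0639 to 0.0816 (Satb1). Between exercised fathers and the offspring of exercised fathers, the striatum and septum covariate gave -0.00918 for Dlx2, and the ranges were -0.0227 to 0.102 (Dlx6os1) and -0.0177 to 0.08 (Sox6).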
